A study of Homo sapiens with 6 samples.

Results

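Mitochondrial ribosomal protein genes were compared between HT-1080 cells exposed for 24 h to an IRAK4 inhibitor and cells given the solvent DMSO. HT-1080 is an established human line from a fibrosarcoma. The kinase IRAK4 relays signals from Toll-like and interleukin-1 receptors. The inhibitor group received the compound labelled SLV-8472-01 at a labelled 5 mM, and no file here tests that unit. The control group received 0.1% DMSO, and no DMSO content is recorded here for the inhibitor group. Both groups were the same line, with no genetic change named in the labels, and each had 3 libraries that the series describes as biological replicates. Expression was read with an amplicon panel, in which a short PCR product stands for each gene. The gene set was chosen by symbol, as every row whose name starts with MRPL or MRPS followed by a digit. This gave 78 of 20683 rows, 50 with large subunit names and 28 with small subunit names. Of these, 75 are protein genes, 48 of the large and 27 of the small subunit, and 3 are rows of pseudogenes (MRPL42P5, MRPL45P2 and MRPS31P5).

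Mitochondria carry their own ribosome, which translates the few messenger RNAs of the mitochondrial genome into core subunits of the respiratory chain. Its ribosomal RNAs come from mitochondrial DNA, whereas every one of its proteins is encoded in the nucleus, made in the cytosol and imported. The small subunit decodes the messenger, and the large subunit joins amino acids and releases the chain at the inner membrane. Some of these proteins have bacterial counterparts and others are found only in mitochondria.

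All 75 protein genes were read deeply enough to be tested, together with MRPS31P5. The libraries held 9162281 to 13184553 counts and 13452 to 13913 genes above 0. The mean count of a member over the 6 libraries lay between 15.3 and 10822, with a median of 638. The 12 fibroblast-like markers summed to 9877 to 11263 CPM (counts scaled to a common library size) in the DMSO libraries and 10116 to 10528 CPM in the inhibitor libraries. VIM and SPARC were the most abundant, with means of 6030 and 1846 CPM over the 6 libraries. CD44, COL5A1 and S100A4 had means of 9.94, 6.66 and 3.01 CPM, and COL5A2, with 2 to 6 counts per library, was not tested. The 5 epithelial markers stayed at or below 0.535 CPM in sum, with CDH1 and KRT5 at 0. The 3 endothelial markers summed to at most 2.21 CPM, with VWF at 0. Replicates differed by more than counting noise in every pair (chi-square divided by its degrees of freedom at least 5.17). The library DMSO 3 stood apart from the other controls: over all tested genes its median absolute log2 difference was 0.331 from DMSO 1 and 0.265 from DMSO 2, against 0.171 between DMSO 1 and DMSO 2. Results are therefore also given without it.

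Promoter sequence was searched for letters that the choice by symbol did not use, with no test. RefSeq (build GRCh38.p14) gave a window of 250 bases before to 50 bases after an annotated start for 67 of the 75 protein genes. Letters typical of sites for ETS factors such as GABP (CCGGAAG, either strand) were in 28 of the 67, or 41.8%, against 23.4% of the 8802 tested genes with a window and 12.2% of all 27305 symbols. Letters typical of YY1 sites (AAGATGGC) were in 20, or 29.9%, against 6.99% of tested genes and 3.52% of all symbols. Letters typical of NRF1 sites (GCATGCGC) were in 6, or 8.96%, against 6.62% and 3.68%, shares not far apart, and the E box bound by MYC (CACGTG) in 10, or 14.9%, against 12.99% and 8.77%. ETS-, YY1- or NRF1-type letters were in 42 of the 67, or 62.7%, against 32.9% of tested genes, so no motif was common to all members. These motifs do not overlap each other in the stretches shown here. A gene with several windows counted once if any window held the letters. A match describes the letters and shows no binding.

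The upstream 250 bases are printed 5′ to 3′ for 5 members whose values are described below, with the motif letters in capitals. They are MRPS15 (chr1:36464385-36464634, minus strand) and MRPL54 (chr19:3762432-3762681, plus strand), the members with the smallest p in the small subunit and in the large subunit. The others are the paralogs MRPS18A (chr6:43687792-43688041, minus strand), MRPS18B (chr6:30617590-30617839, plus strand) and MRPS18C (chr4:83455808-83456057, plus strand), which encode related proteins.
MRPS15: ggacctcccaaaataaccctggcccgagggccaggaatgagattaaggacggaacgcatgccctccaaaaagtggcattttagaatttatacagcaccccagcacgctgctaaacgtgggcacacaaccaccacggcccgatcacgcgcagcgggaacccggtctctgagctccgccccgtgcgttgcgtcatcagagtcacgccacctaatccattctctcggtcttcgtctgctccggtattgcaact
MRPL54: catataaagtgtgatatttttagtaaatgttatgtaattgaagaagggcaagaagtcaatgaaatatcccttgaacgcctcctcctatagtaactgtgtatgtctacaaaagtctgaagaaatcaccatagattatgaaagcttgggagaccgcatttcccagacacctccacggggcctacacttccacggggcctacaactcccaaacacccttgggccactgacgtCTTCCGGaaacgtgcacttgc
MRPS18A: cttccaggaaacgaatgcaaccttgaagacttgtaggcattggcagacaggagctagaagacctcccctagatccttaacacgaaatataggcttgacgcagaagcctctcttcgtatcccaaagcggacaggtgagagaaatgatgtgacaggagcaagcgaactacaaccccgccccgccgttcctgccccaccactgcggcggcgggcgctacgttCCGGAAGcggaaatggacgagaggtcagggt
MRPS18B: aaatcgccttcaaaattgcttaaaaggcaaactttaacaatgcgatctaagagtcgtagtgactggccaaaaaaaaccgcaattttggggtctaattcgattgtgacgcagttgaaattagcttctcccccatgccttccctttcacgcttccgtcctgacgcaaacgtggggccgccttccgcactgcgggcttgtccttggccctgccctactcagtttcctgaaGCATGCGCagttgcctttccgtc
MRPS18C: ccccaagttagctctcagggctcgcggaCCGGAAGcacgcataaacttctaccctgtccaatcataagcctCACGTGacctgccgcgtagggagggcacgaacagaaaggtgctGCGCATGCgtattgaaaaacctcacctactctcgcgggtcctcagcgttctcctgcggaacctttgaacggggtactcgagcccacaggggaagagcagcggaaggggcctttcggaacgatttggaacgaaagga
MRPS15 held none of the 4 motifs in this stretch. MRPL54 and MRPS18A each held the ETS-type letters, in opposite orientation, starting 21 and 31 bases before the start. MRPS18B held the NRF1-type letters, starting 23 bases before it. MRPS18C held ETS-type, E box and NRF1-type letters, starting 222, 179 and 136 bases before the start.

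The comparison of inhibitor with DMSO asked whether the genes of this ribosome differed after 24 h of exposure. By the quasi-likelihood test of edgeR, 0 of the 75 protein genes had a Benjamini-Hochberg adjusted p under 0.05, where 3.87% of 11216 tested genes passed, 1.95% higher and 1.92% lower with inhibitor. DESeq2 also called 0 of the 75, where it called 5.3% of tested genes, and limma-voom called 0, where it called 3.96%. With library totals alone as the scaling, edgeR called 1 member, MRPS15 (adjusted p = 0.045), and 4.45% of tested genes. An unadjusted p under 0.05 was reached by 4 members with edgeR, or 5.33%, against 19.5% of all tested genes with edgeR. It was reached by 4 members with DESeq2 and by 5 with limma-voom, for which no such share over all genes was computed. Most log2 fold changes were small: 61 of 75, or 81.3%, lay within 0.25 of 0 on the log2 scale, against 63.5% of all tested genes. In 73 of 75 the 95% interval of the fold change excluded a 2-fold change in either direction, against 88.8% of all tested genes. The exceptions were MRPL45 and MRPL13, which had the fewest counts. These are bulk libraries, in which fewer cells with a transcript and less RNA per cell cannot be told apart.

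**Figure D1:**
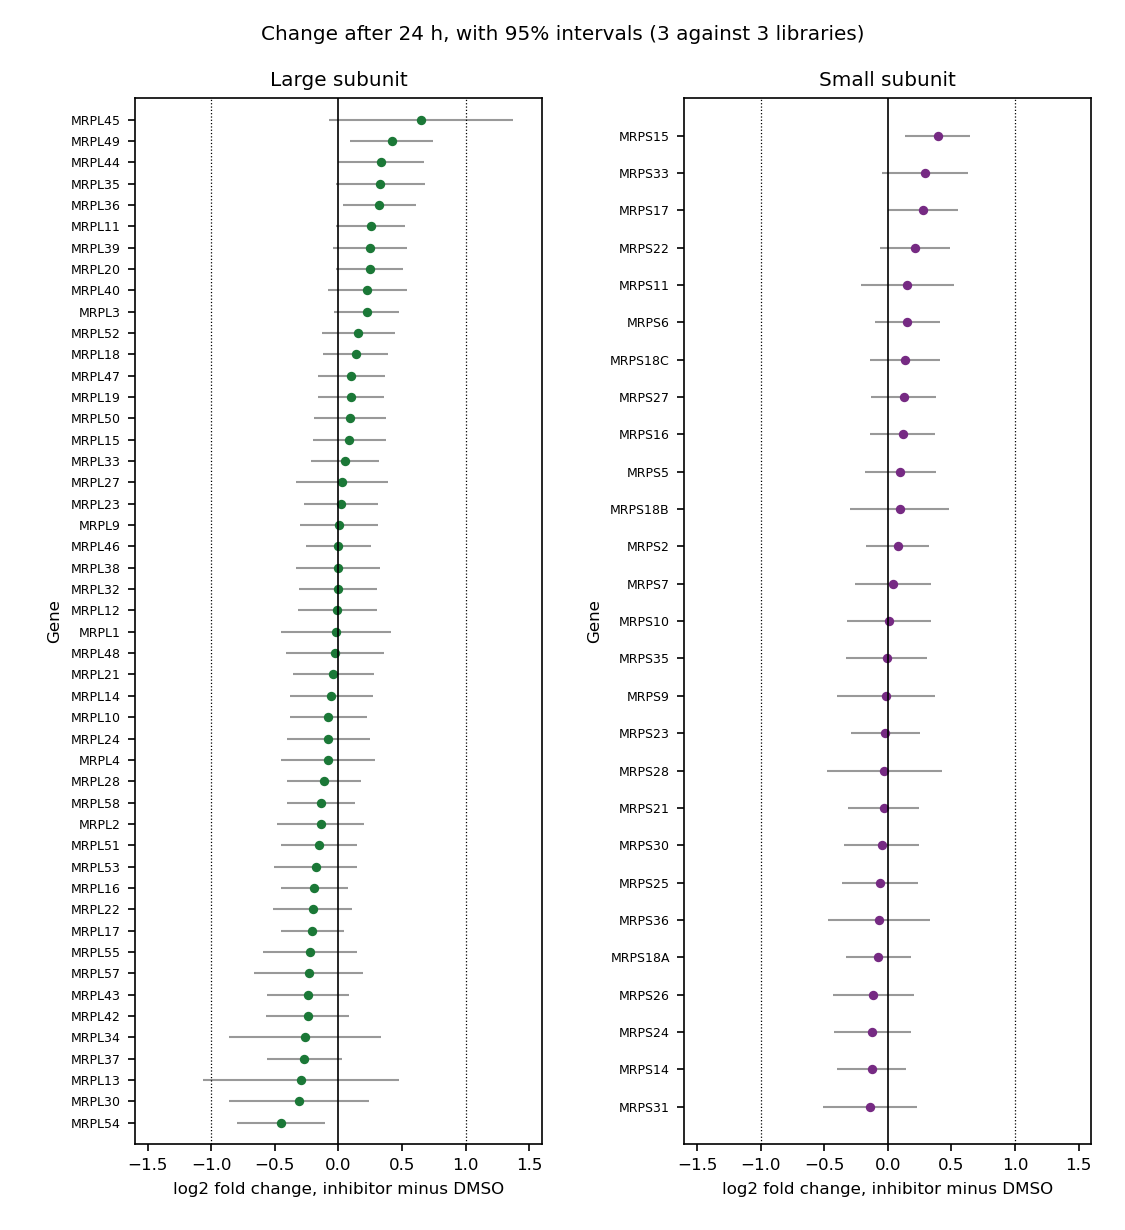
The log2 fold change of each of the 75 protein genes (x axis, inhibitor minus DMSO, 3 against 3 libraries) is drawn as a point with its 95% interval, large subunit on the left and small subunit on the right. Dotted lines mark a 2-fold change in either direction, which only the intervals of MRPL45 and MRPL13 cross.

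The large subunit genes had a median log2 fold change of -0.01 (48 genes, range -0.45 to 0.65), and the small subunit genes of 0.01 (27 genes, range -0.14 to 0.39). The median over all tested genes was 0.00, with a range of -4.12 to 5.19. The interquartile range was 0.292 in the large subunit, 0.184 in the small subunit and 0.364 in all tested genes. Among large subunit genes 20 had values above 0 and 28 below, and among small subunit genes 14 and 13. The 3 inhibitor values lay apart from the 3 DMSO values in 12 of 75 members, or 16%, 9 with inhibitor higher and 3 lower, against 25.5% of all tested genes (13.7% higher and 11.8% lower). This separation described MRPL11, MRPL18, MRPL20, MRPL36, MRPL39, MRPL49, MRPS15, MRPS17 and MRPS22 on the higher side and MRPL16, MRPL22 and MRPL54 on the lower.

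Summed over genes, the large subunit reached 4319, 4428 and 4385 CPM in inhibitor 1 to 3 and 4358, 4205 and 4333 CPM in DMSO 1 to 3. The group means were 4377 ± 54.6 and 4298 ± 82.2 CPM (SD, n = 3), and the groups overlapped. The small subunit summed to 1977, 2057 and 2033 CPM in the inhibitor libraries and to 1936, 1869.9 and 2029 CPM in the DMSO libraries, also overlapping. The ratio of the large to the small sum was 2.18, 2.15 and 2.16 with inhibitor and 2.25, 2.25 and 2.14 with DMSO, so DMSO 3 lay below the inhibitor libraries and the other controls above them. Counts in an amplicon panel also depend on how well each product amplifies, so these sums and ratios are not amounts of protein or of ribosome. A single gene, MRPL3, made up 19.0% to 24.4% of the large subunit sum.

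**Figure D2:**
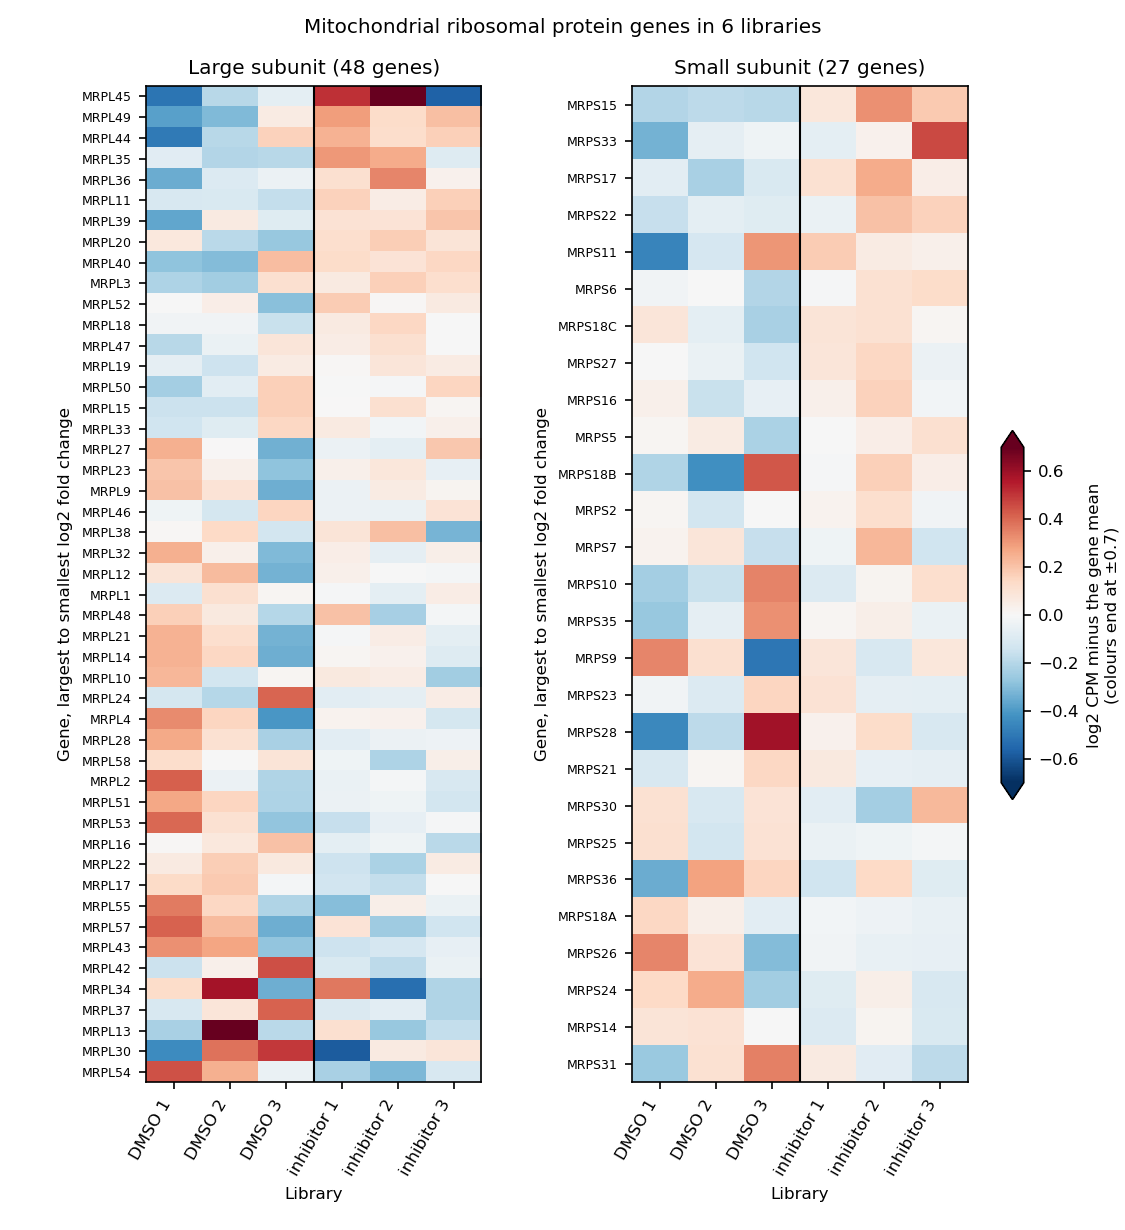
Each row is a protein gene and each column a library, and the colour is the log2 CPM minus that gene's mean over the 6 libraries (red higher, blue lower). The DMSO columns hold more of the strong colours than the inhibitor columns, and DMSO 1 and DMSO 3 often have opposite colours.

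Small subunit genes with bacterial counterparts included the member nearest to the threshold. MRPS15, which encodes an RNA-binding protein of the small subunit, was at 118, 139 and 127 CPM in inhibitor 1 to 3 and at 96.5, 98.3 and 97.4 CPM in DMSO 1 to 3. Every inhibitor value was above every control value, and the controls were nearly equal. The log2 fold change was 0.39 (SE 0.118, 95% interval 0.14 to 0.65), with an edgeR adjusted p = 0.0825. MRPS17 was at 34.0, 37.8 and 32.6 CPM against 29.96, 26.9 and 29.3 CPM, with no overlap (log2 fold change 0.28, SE 0.13, edgeR adjusted p = 0.258). MRPS11 was at 57.3, 52.7 and 51.9 CPM with inhibitor and at 36.7, 46.7 and 62.7 CPM with DMSO, where DMSO 3 was the highest of all 6 libraries. MRPS16, in which inherited mutations cause respiratory chain deficiency, had a log2 fold change of 0.12 (SE 0.119, 95% interval -0.14 to 0.37). MRPS2, among the small subunit genes with the most counts, was at 163 ± 8.08 CPM with inhibitor and 155 ± 8.24 CPM with DMSO (SD, n = 3).

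Among small subunit genes whose proteins are found only in mitochondria, MRPS33 was at 36.3, 39.0 and 52.6 CPM with inhibitor and at 30.3, 36.5 and 37.4 CPM with DMSO. Inhibitor 3 was the high value, and inhibitor 1 lay below DMSO 2 and 3 (log2 fold change 0.30, SE 0.158, edgeR adjusted p = 0.321). MRPS22, another gene of inherited mitochondrial disease, was at 37.5, 44.6 and 43.4 CPM against 34.6, 36.9 and 36.5 CPM, without overlap (log2 fold change 0.22, SE 0.128, edgeR adjusted p = 0.374). MRPS27, which encodes a pentatricopeptide repeat protein, had a log2 fold change of 0.13 (SE 0.118). MRPS26 was at 129, 127 and 126 CPM with inhibitor and at 166, 139.9 and 106 CPM with DMSO. The inhibitor values sat in the middle of a control range whose ends were DMSO 1 and DMSO 3. The lowest log2 fold change in the small subunit was -0.14 for MRPS31 (SE 0.172), and MRPS31 and its pseudogene row MRPS31P5 may share reads. MRPS31P5 itself was at 3.92, 2.94 and 2.60 CPM against 4.38, 4.57 and 4.84 CPM (log2 fold change -0.52, SE 0.223, edgeR adjusted p = 0.213). Across the whole small subunit, genes with bacterial counterparts included, 13 had a value below 0. MRPS31 was among them, as were MRPS14 at -0.12 and MRPS24 at -0.12 (edgeR adjusted p = 0.641 and 0.688). MRPS36 had few counts, at 10.2 ± 1.07 CPM with inhibitor and 10.7 ± 2.31 CPM with DMSO (SD, n = 3). MRPS25, also lowly counted, was at 19.7 ± 0.226 and 20.6 ± 1.88 CPM. The MRPS36 product is now assigned to the 2-oxoglutarate dehydrogenase complex, and RefSeq names the gene KGD4.

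MRPS18A, MRPS18B and MRPS18C are paralogs of a bacterial small subunit protein, and structures place the MRPS18A product in the large subunit. MRPS18A was at 66.4, 65.6 and 64.8 CPM with inhibitor and at 74.2, 69.1 and 63.8 CPM with DMSO. MRPS18C was at 55.7, 56.4 and 52.8 CPM with inhibitor and at 55.5, 49.9 and 44.7 CPM with DMSO. In both, DMSO 3 was the lowest library. MRPS18B was at 154, 174 and 159.97 CPM with inhibitor and at 134, 115 and 209 CPM with DMSO, so here DMSO 3 was the highest. Their log2 fold changes were -0.07 (95% interval -0.33 to 0.18), 0.13 (-0.14 to 0.41) and 0.09 (-0.29 to 0.48) for MRPS18A, MRPS18C and MRPS18B. MRPS30, also a large subunit protein by structure, was at 203 ± 33.9 CPM with inhibitor and 210 ± 17.3 CPM with DMSO (SD, n = 3).

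**Figure D3:**
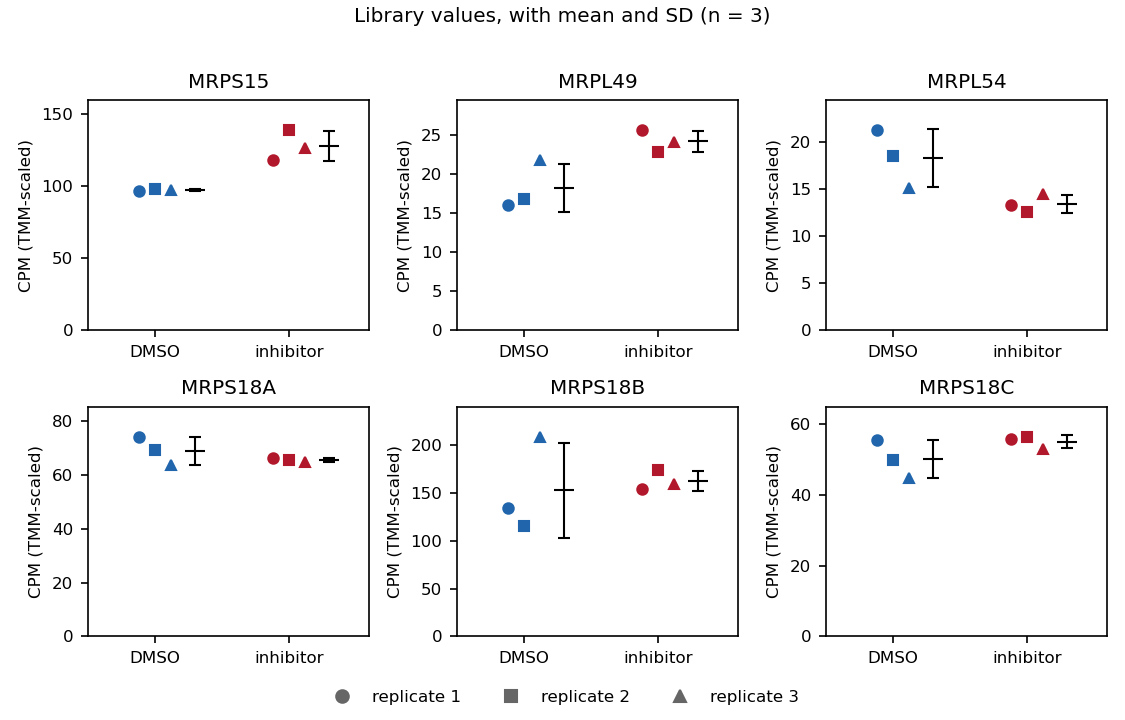
CPM of MRPS15, MRPL49, MRPL54 and the 3 MRPS18 paralogs in each library (y axis from 0), DMSO in blue and inhibitor in red, with the mean and SD of 3 libraries in black. The groups do not overlap for MRPS15, MRPL49 and MRPL54, and DMSO 3 is the highest library for MRPS18B, at 209 CPM.

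In the large subunit, none of the genes of the stalk, which recruits translation factors, passed the test. MRPL12, the stalk protein that is also reported to bind the mitochondrial RNA polymerase, was at 77.8, 75.7 and 75.1 CPM with inhibitor and at 80.8, 88.4 and 60.3 CPM with DMSO. Its inhibitor values were nearly equal and lay inside the control range (log2 fold change -0.01, 95% interval -0.32 to 0.30). MRPL10, which anchors the stalk, had a log2 fold change of -0.08 (SE 0.14). MRPL11, at the stalk base, was at 29.9, 27.7 and 30.1 CPM against 24.8, 24.9 and 23.9 CPM, without overlap (log2 fold change 0.25, SE 0.127, edgeR adjusted p = 0.293).

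Proteins around the exit of the nascent chain gave values on both sides of 0. MRPL23 was at 0.02 (SE 0.136) and MRPL24 at -0.08 (SE 0.152) on the log2 fold change scale. MRPL24 was at 194, 195 and 211 CPM with inhibitor and 187, 177 and 269.8 CPM with DMSO, and DMSO 3 was the high library. MRPL45, which ties the ribosome to the inner membrane, had the largest log2 fold change of all members, 0.65 (SE 0.337, 95% interval -0.07 to 1.37, edgeR adjusted p = 0.305). It rested on 35, 40 and 13 counts in inhibitor 1 to 3 and 18, 23 and 17 counts in DMSO 1 to 3. Inhibitor 3 was below every control in CPM, at 1.35 against 1.41 to 1.91, and reads may be shared with the pseudogene row MRPL45P2, which had 2 to 5 counts per library and was not tested. MRPL42P5, with 0 to 4 counts per library, was not tested either.

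The remaining large subunit members with an unadjusted p under 0.05 were MRPL49, MRPL54 and MRPL36. MRPL49, a mitochondria-specific protein gene, was at 25.6, 22.8 and 24.1 CPM with inhibitor and at 16.0, 16.8 and 21.7 CPM with DMSO. The groups did not overlap, with DMSO 3 close to inhibitor 2 (log2 fold change 0.42, SE 0.152, edgeR adjusted p = 0.14). MRPL54, also mitochondria-specific, had the lowest log2 fold change of all members and was at 13.3, 12.6 and 14.5 CPM against 21.3, 18.6 and 15.1 CPM. Its groups did not overlap, and DMSO 3 again lay nearest to the inhibitor libraries (log2 fold change -0.45, SE 0.161, edgeR adjusted p = 0.134). MRPL36, a small zinc-binding protein with a bacterial counterpart, was at 69.8, 81.9 and 66.1 CPM against 50.9, 60.6 and 62.9 CPM (log2 fold change 0.32, SE 0.135, edgeR adjusted p = 0.205).

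MRPL3, a core protein near the catalytic centre and the most counted member, was at 1004, 1080.3 and 1042 CPM with inhibitor and at 827, 813 and 1040.3 CPM with DMSO. DMSO 3 fell among the inhibitor libraries, and the other controls lay below them (log2 fold change 0.22, SE 0.12, edgeR adjusted p = 0.326). The same arrangement held for MRPL44, which has a ribonuclease III-like fold, at 45.3, 41.6 and 43.0 CPM against 27.1, 33.4 and 42.8 CPM (log2 fold change 0.34, SE 0.158, edgeR adjusted p = 0.26). MRPL35 was at 14.6, 14.2 and 11.1 CPM against 11.2, 10.3 and 10.4 CPM, with inhibitor 3 just inside the control range. MRPL53 was at 219 ± 11.5 CPM with inhibitor and 248 ± 57.1 CPM with DMSO (SD, n = 3), and MRPL37 at 187 ± 9.36 and 225 ± 41.9 CPM. MRPL18, of a family that contacts RNA in the central protuberance, was at 82.99, 87.9 and 79.5 CPM against 78.1, 78.3 and 71.4 CPM (log2 fold change 0.14, SE 0.118, edgeR adjusted p = 0.583). MRPL13, with 10 to 28 counts per library, had the lowest mean count of all members and a wide interval (log2 fold change -0.29, 95% interval -1.06 to 0.48). MRPL34 was at 3.66 ± 1.19 CPM with inhibitor and 4.35 ± 1.38 CPM with DMSO (SD, n = 3). MRPL30 varied widely within both groups, at 4.33, 6.77 and 6.86 CPM with inhibitor and 4.77, 8.45 and 9.12 CPM with DMSO.

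The spread between libraries was larger in the DMSO group. The median SD of log2 CPM was 0.0730 in the inhibitor and 0.238 in the DMSO libraries for the large subunit, 0.0916 and 0.135 for the small subunit, and 0.126 and 0.213 for all tested genes. The SD was larger in DMSO for 60 of 75 members, or 80%, against 70.6% of all tested genes. By subunit this was 85.4% of the large and 70.4% of the small subunit genes, the latter close to the share over all genes. DMSO 3 lay outside the range of DMSO 1 and DMSO 2 in 41 of 48 large and 19 of 27 small subunit genes, or 80% of members, close to the 82.4% of all tested genes. It was the lowest of all 6 libraries for 27 members, or 36%, and the highest for 18, or 24%, against 25.2% and 25.8% of all tested genes. DMSO 1 was also often at an end. It was the lowest for 18 members, or 24%, and the highest for 21, or 28%, against 24.0% and 22.5% of all tested genes. The extremes of DMSO 3 were MRPS28, at 70.7 CPM in DMSO 3 against 34.5 and 41.5 CPM in DMSO 1 and 2, and MRPS9, at 23.9 CPM against 42.9 and 36.6 CPM.

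**Figure D4:**
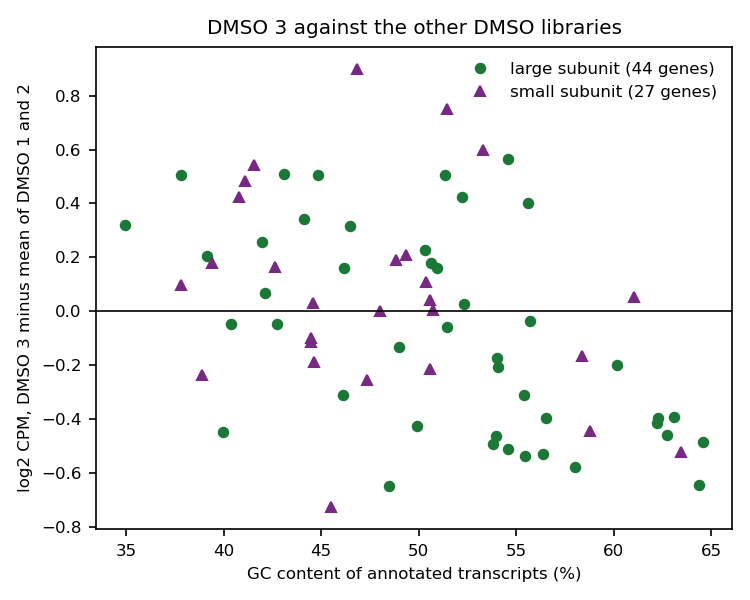
For the 71 protein genes with a mean count of at least 50, the log2 CPM of DMSO 3 minus the mean of DMSO 1 and DMSO 2 (y axis) is plotted against the GC content of the annotated transcripts in percent (x axis). Large subunit genes (green circles) and small subunit genes (purple triangles) both scatter on both sides of 0. At high GC content most lie below 0, as MRPL12 does at -0.48 and 64.6% GC. The same holds for MRPS26 at -0.52 and 63.4% GC, but not for MRPS2 at 0.05 and 61.0% GC.

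The position of DMSO 3 moved with the GC content of the transcripts. Across 44 large subunit genes with a mean count of at least 50, the log2 difference of DMSO 3 from the mean of DMSO 1 and DMSO 2 had a Spearman correlation of -0.53 and a Pearson correlation of -0.55 with GC content. Across 27 small subunit genes these were -0.18 and -0.25, and across 9215 tested genes -0.49 and -0.49. The genes share these 3 libraries and are not independent replicates, so the values are descriptions. The GC content is that of annotated transcripts, not of the amplified products, and its part in the results was not tested beyond the fit that follows. With each library's GC trend removed, 0 of 75 members passed with edgeR, where 6.51% of all tested genes passed, and 9 members had an unadjusted p under 0.05, against 22.5% of all tested genes.

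Without DMSO 3 the count of calls changed, for the members and for all genes. With edgeR, 14 of 75 members, or 18.7%, then had an adjusted p under 0.05, 8 higher and 6 lower with inhibitor, against 21.9% of 11386 tested genes (10.8% higher and 11.1% lower). In the large subunit 5 were higher (MRPL3, MRPL36, MRPL40, MRPL44 and MRPL49) and 5 lower (MRPL17, MRPL43, MRPL51, MRPL53 and MRPL54). In the small subunit MRPS11, MRPS15 and MRPS18B were higher and MRPS26 was lower. Those called by this comparison of 3 against 2 libraries had log2 fold changes between -0.58 for MRPL54 and 0.54 for MRPL49. MRPL40, a mitochondria-specific protein gene, showed how 1 library mattered: it was at 90.5, 88.2 and 91.2 CPM with inhibitor and 68.0, 67.0 and 95.9 CPM with DMSO. Its log2 fold change was 0.23 (edgeR adjusted p = 0.417) with DMSO 3 and 0.40 (edgeR adjusted p = 0.00568) without it. MRPL43 was at 128, 129.7 and 136 CPM with inhibitor and 176, 171 and 116 CPM with DMSO, and its log2 fold change was -0.24 (edgeR adjusted p = 0.408) with and -0.42 (edgeR adjusted p = 0.00238) without DMSO 3. With library quality weights in limma-voom, 12 of 75 members passed, or 16%, 9 higher and 3 lower, against 23.2% of all tested genes (12.4% higher and 10.9% lower), and 10 of these were among the 14.

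**Figure D5:**
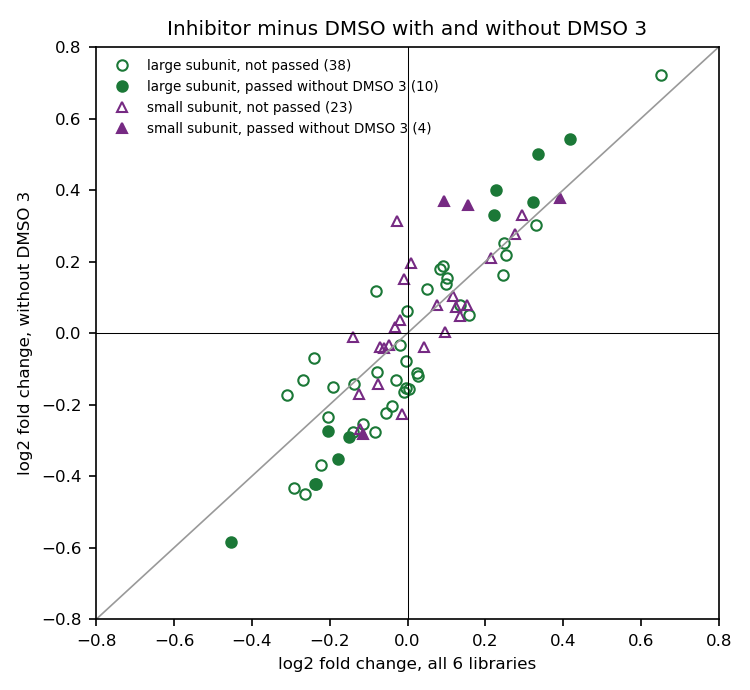
Each point is a protein gene, with its log2 fold change over all 6 libraries on the x axis and without DMSO 3 on the y axis, and the grey line marks equal values. Filled points are the 10 large and 4 small subunit genes with an adjusted p under 0.05 without DMSO 3, which lie on both sides of 0.

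Genes of the same machinery with other symbols, and of the factors around it, were grouped by function. DAP3, a GTP-binding small subunit protein also known from apoptosis, was at 142 ± 8.45 CPM with inhibitor and 142 ± 36.2 CPM with DMSO (SD, n = 3). None of the 4 small subunit genes with other symbols (DAP3, PTCD3, AURKAIP1 and CHCHD1) passed, nor did GADD45GIP1 of the large subunit, at -0.05 (SE 0.143). PTCD3, a pentatricopeptide repeat protein gene, was at 0.27 (edgeR adjusted p = 0.364), and at 0.47 (edgeR adjusted p = 0.00211) without DMSO 3. Of 14 genes of translation factors, including the elongation factor TUFM at -0.22 (SE 0.14), 0 passed, with 1 at an unadjusted p under 0.05 (median log2 fold change -0.02). Of 28 genes of ribosome assembly and RNA handling, 0 passed and 8 had an unadjusted p under 0.05, against 19.5% of all tested genes. Their median log2 fold change was 0.08. The ends of that list were TFB1M, an rRNA methyltransferase gene, at -0.59 (SE 0.183, edgeR adjusted p = 0.086) and MTERF3 at 0.50 (SE 0.178, edgeR adjusted p = 0.134). FASTKD2, an RNA-binding protein gene, was at 0.48 (SE 0.145, edgeR adjusted p = 0.0834) and RPUSD4, a pseudouridine synthase gene, at -0.43 (SE 0.126, edgeR adjusted p = 0.0747). These genes were chosen after their values were seen. Without DMSO 3, 3 genes of the assembly list were higher and 6 lower, and 2 translation factor genes were higher and 1 lower, where 10.8% of all tested genes were higher and 11.1% lower. In the same comparison, 2 of 5 genes of mitochondrial transcription were higher and 2 of 10 nuclear regulators were lower, and 5 of the 11 tested fibroblast-like markers were lower, of which 0 passed with all 6 libraries.

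Of 5 genes of mitochondrial transcription, 0 passed and 3 had an unadjusted p under 0.05 with edgeR, against 19.5% of all tested genes. Their median log2 fold change was 0.29. TFAM, the factor that packages mitochondrial DNA and starts its transcription, was at 77.6 ± 5.31 CPM with inhibitor and 63.4 ± 8.12 CPM with DMSO (SD, n = 3), with an edgeR adjusted p = 0.244 for a log2 fold change of 0.29 (SE 0.132). Of 10 nuclear regulators, 3 had an unadjusted p under 0.05. By edgeR adjusted p, 1 fell and 0 rose, where 1.92% of all tested genes fell. It was MYC, a transcription factor known to act on many ribosomal and mitochondrial genes, at 44.9, 45.7 and 42.2 CPM with inhibitor and 110.1, 104 and 84.5 CPM with DMSO (log2 fold change -1.17, SE 0.133, edgeR adjusted p = 0.000224). NRF1 and GABPA, factors named for the motifs above, were at 0.23 (SE 0.147, edgeR adjusted p = 0.421) and -0.10 (SE 0.157, edgeR adjusted p = 0.791). YY1, also named for a motif, was at 0.22 (SE 0.114, edgeR adjusted p = 0.315). The 10 members with an E box in the promoter window had a median log2 fold change of 0.11 (range -0.27 to 0.65), and the 57 without it of -0.01 (range -0.45 to 0.39). The 28 members with ETS-type letters and the 39 without them had medians of -0.01 and 0.00, and the 20 with YY1-type letters and the 47 without them of 0.02 and -0.02.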

How the data were processed

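The deposited values are raw counts per gene, one table per library, from an Ion AmpliSeq panel. HTSeq, DESeq2 1.20.0 and hg19 appear, without roles, per the submitters' processing notes, and the aligner was not given in the sources used here. Library totals were 9162281 to 13184553 counts. The members and gene lists were chosen with earlier results of these data known. Genes were filtered with filterByExpr (minimum count 10, minimum total 15), scaled by TMM and tested with edgeR 4.0.16 (quasi-likelihood, R 4.3.3). Benjamini-Hochberg adjustment ran over all 11216 tested genes, with a threshold of 0.05. CPM use the TMM-scaled library sizes. A prior count of 2 was added for log2 CPM. The SE is the absolute log2 fold change divided by the square root of F. The code was tested on simulated data. p-values and intervals rest on the spread between these libraries. The edgeR fit shares information on that spread between genes, so an SE is not the gene's own spread alone. Alternatives were DESeq2 1.42.0 as a test and for size factors, limma 3.58.1 (voom, with and without quality weights), library totals, 2 other filters, removal of a GC trend (loess span 0.5), a replicate block, both together, other member lists, and leaving out each library. The text names members that passed, in each subunit the 5 highest and 5 lowest log2 fold changes, the 3 highest and 3 lowest mean CPM and the 2 most variable, and members with a described role. Others are named where a count or a left-out library turns on them, after their values were seen. Genes without a row, such as MRPS12 and MRPS34, were not analysed here. A result on the haematopoietic marker list is not reported here.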

Additional observations from a re-analysis of the deposited data

How the results depend on the processing

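Over all tested genes, 434 passed with edgeR, 831 with no filter on low counts, 724 after removal of the GC trend, 716 with that and the replicate block, 2606 under quality weights, and 99 to 2496 when 1 library was left out. The count of large subunit genes, 0 in the reported fit, was 9 with quality weights and 10 without DMSO 3. That of small subunit genes, also 0, was 1 with library totals (MRPS15, edgeR adjusted p = 0.045), 3 with quality weights and 4 without DMSO 3. Leaving out any other single library gave 0 in both subunits. The median log2 fold change of the large subunit was 0.0446 with library totals and -0.0740 with quality weights, and -0.116 to 0.0230 with 1 library left out. That of the small subunit was 0.0687 with library totals, 0.0793 with quality weights, -0.0306 after removal of the GC trend, 0.0592 with subunits assigned by structure, 0.0416 with members of other symbols added, and 0.00120 to 0.0586 with 1 library left out. The cause of these shifts was not tested. For the 37 members named by the rule there were 589 alternative values. Of these, 34 changed sign, none of them called either way, and 19 passed the threshold where the reported value did not. Members named after their values were seen, such as MRPL40 and MRPL43, are not in this count. With the replicate number as a block, 0 members and 327 genes passed, with medians of -0.02 for the large and 0.03 for the small subunit. Deviations of same-numbered libraries from their group had correlations of -0.04, -0.04 and -0.09. With 3 libraries per group these values cannot decide whether the numbers pair the samples, and the series does not state it. MRPL13 and MRPL45, with the fewest counts, had intervals that reach beyond a 2-fold change. MRPL45 also varied widely between inhibitor libraries (SD of log2 CPM 0.676), and the parts of depth and spread were not tested.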
